A study of Mus musculus with 4 samples.

Results

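The genes described here defend liver cells against oxidants and bind metal ions. They are 10 antioxidant and metallothionein genes, namely Nqo1, Gclc, Gclm, Txnrd1, Prdx1, Sod1, Sod2, Gpx1, Mt1 and Mt2. Every probe set (the group of short probes that measures a transcript) whose only gene symbol in the platform annotation was one of these names was taken. This gave 10 probe sets for 9 of the 10 genes, out of 8251 genes with a probe set of their own and 12422 probe sets in all once array controls were left out. Prdx1 had none, because its 2 probe sets list a predicted gene beside it, and no value is given for it.

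The study measured total liver RNA of male B6SJL hybrid mice on the Affymetrix MG_U74Av2 array. The 2 wild-type arrays carried RNA of non-transgenic mice. The 2 PEPCK-TAg arrays carried RNA of mice with a transgene that encodes the SV40 large T and small t antigens under the promoter of PEPCK, the rate-limiting enzyme of glucose synthesis in liver. All of the mice were 50 to 66 days old and had been fed for 4 weeks after weaning on a high-protein diet (65% protein, 10% carbohydrate). The labels speak of duplicate measurements and name no separate animals, so the p-values measure only the spread between these arrays, which may be technical.

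Reactive oxygen is disarmed in steps: superoxide dismutases turn superoxide into hydrogen peroxide, and glutathione peroxidases and peroxiredoxins reduce the peroxide with electrons drawn from glutathione and thioredoxin. The transcription factor NRF2 (Nfe2l2), held back by KEAP1 until oxidants or electrophiles appear, acts through antioxidant response elements (ARE) and raises Nqo1, Gclc, Gclm, Txnrd1 and Prdx1 in many tissues. Metallothioneins are small cysteine-rich proteins that bind zinc, copper and cadmium; in liver their genes respond to metals through the factor MTF1 and metal response elements (MRE), and also to glucocorticoids and inflammation.

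The deposited arrays had nearly the same trimmed mean signal (250.1 to 250.2), and the middle probe set read 66.6 and 68.4 in wild-type liver and 77.0 and 84.7 in PEPCK-TAg liver. The 3′/5′ ratio of the actin control probe sets, a measure of RNA integrity, was 4.33 and 3.41 on wild-type arrays 1 and 2. It was 3.82 and 3.14 on PEPCK-TAg arrays 1 and 2, so the groups overlapped. The GAPDH ratio was 5.35 and 3.8 on the wild-type arrays against 4.57 and 2.9 on the PEPCK-TAg arrays. Both ratios were highest on wild-type array 1 and lowest on PEPCK-TAg array 2, and their part in the results below was not tested. Both PEPCK-TAg arrays came from 1 chip lot and the wild-type arrays from other lots, so lot and genotype cannot be told apart. Wild-type array 1 and PEPCK-TAg array 1 were scanned on the same day, and their difference is given below as the same-day value. PEPCK-TAg array 2 was the only one run on the second fluidics station, and wild-type array 2 the only one read on the other scanner type (M10). With the station as a block limma called 0 of the 7877 probe sets tested (1432 at an unadjusted p under 0.05), and with the scanner type as a block it called 977. Each block takes its lone array out of the comparison, PEPCK-TAg array 2 for the station and wild-type array 2 for the scanner, and so leaves 1 array in that group. Albumin, the defining product of hepatocytes, had signals of 9389 to 17282, and markers of several other cells moved with the transgene. Of the hepatocyte markers, 4 of the 13 tested fell and none rose, and their summed signal was 104766 and 110917 in wild-type against 57222 and 69054 in PEPCK-TAg. After quantile normalization 3 of them fell (Ttr, Tat and Tdo2) and 1 rose (Fgb), and the albumin difference went from -0.56 to 0.04 on the log2 scale, so the lower sum depends on the scaling. Of the neutrophil markers, 8 of the 10 tested rose, with sums of 582 and 665 against 7613 and 11879. Ctsg, Mmp8, Mmp9, Itgam and Fcgr3 were too dim to test. Erythroid markers rose in 9 of 13 (sums of 4270 and 4675 against 11864 and 16895) and macrophage markers in 5 of 13 (3116 and 3465 against 7248 and 8009). Of the genes listed as biliary markers 5 of 6 rose (3435 and 3503 against 7684 and 10312), with Krt19, Krt7 and Epcam too dim to test. Krt8 and Krt18 had the largest signals of that list on every array, so its sum is not read as a bile duct signal. Of the lymphocyte markers 2 of 7 rose and 1 fell, with sums of 1148 and 1290 against 525 and 508. Zap70, the 1 that fell, gave 564.3 and 723.5 against 43.6 and 58. It made up most of the gap between the sums, so the sum is not read as a lymphocyte signal. Those that rose, Ltb and Ccl5, were dim in wild-type liver (14.9 and 15.6 for Ltb, 9.9 and 7.7 for Ccl5). Endothelial markers rose in 1 of 11, and stellate cell and fibroblast markers in 1 of 7. Cell cycle genes rose in 16 of 17. The part of these cells in the results below was not tested, and in whole-liver RNA fewer cells of a type and less RNA per cell cannot be told apart.

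The metallothionein Mt2 and the quinone reductase Nqo1 were higher in PEPCK-TAg liver, by 3.32-fold for Mt2. The wild-type signals of Nqo1 lay under the level of the filter on low signals. Its fold is therefore a bound, at least 1.90-fold and at least 2.08-fold on its 2 probe sets. At that bound limma gave adjusted p-values of 0.0417 and 0.117. Nothing is read from these p-values, because the bound makes the wild-type values equal and so removes their spread. Mt1 was higher too by its mean, but its wild-type arrays lay far apart and it did not pass the test. The other genes showed no rise that passed, and Gclc and Sod1 had lower signals on both PEPCK-TAg arrays without passing. A probe set is called here when limma's moderated test gives an adjusted p under 0.05 after Benjamini-Hochberg adjustment over all 7877 probe sets tested. By that rule 3 of the 10 probe sets were called, all higher, against 12.5% of all probe sets tested in either direction, 9.10% higher and 3.40% lower. The called ones include both Nqo1 sets, which report 1 gene and cleared the filter on low signals only through the PEPCK-TAg arrays, so the 3 of 10 is not read against that background. Both PEPCK-TAg arrays lay above both wild-type arrays for 4 probe sets (both of Nqo1, Mt1 and Mt2) and below them for 2 (Gclc and Sod1), where the background is 59.8% of all probe sets in either direction, 33.3% higher and 26.5% lower. The count of 6 of 10 is thus near the background. The median difference of the 10 was 0.16 on the log2 scale, PEPCK-TAg minus wild-type, beside 0.05 over all probe sets tested. With 2 arrays against 2 an exact permutation test cannot give a p below 0.333, so the single-gene tests rest on limma's spread shared across probe sets.

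**Figure D1:**
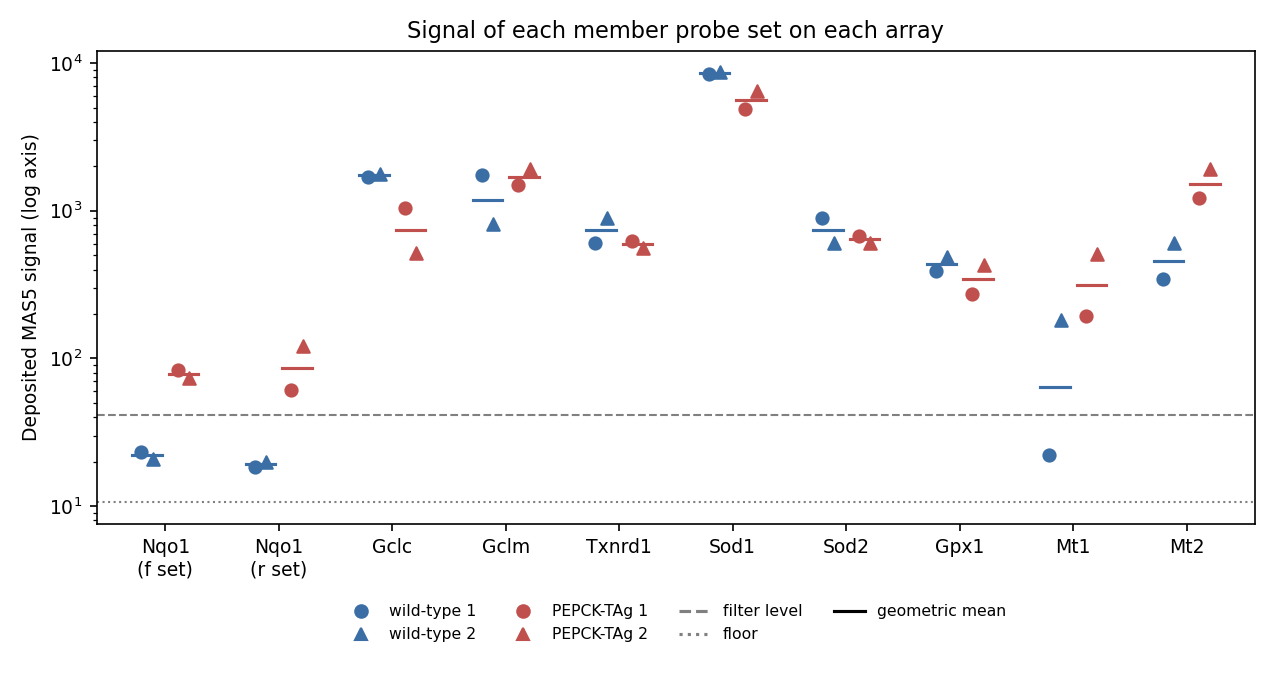
Deposited signal (log axis) of each of the 10 probe sets on each of the 4 arrays, with the geometric mean of each group as a bar; the dashed line is the filter level (41.3) and the dotted line the floor (10.6). Both Nqo1 sets lie below the filter level on the wild-type arrays and above it on the PEPCK-TAg arrays, and Mt1 differs widely between the wild-type arrays (22.2 and 183).

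Nqo1 encodes NAD(P)H quinone dehydrogenase, which reduces quinones by a pair of electrons and so keeps them from forming radicals. The first Nqo1 probe set (94350_f_at) read 23.3 and 21.0 in wild-type liver against 83.1 and 74 in PEPCK-TAg liver. The second (94351_r_at) gave 18.4 and 20 in wild-type against 61.1 and 121 in PEPCK-TAg. On both sets the PEPCK-TAg arrays were clearly above the wild-type arrays, and all wild-type signals were under the filter level of 41.3, so the wild-type level is little more than a bound. The difference was 1.82 ± 0.38 (SE, n = 2 arrays a group) on the log2 scale for the first set (limma adjusted p = 0.0274) and 2.16 ± 0.47 for the second (adjusted p = 0.0308). With every signal under 41.3 raised to that value the differences were 0.92 (adjusted p = 0.0417) and 1.06 (adjusted p = 0.117), that is at least 1.90-fold and at least 2.08-fold higher. That step makes the wild-type values of each set equal, so these p-values carry none of the wild-type spread. The same-day values were 1.83 and 1.73. The letter f in a probe set name marks probes that can also match related sequences, and r marks a set that did not meet all of the design rules. The calls of both sets were lost with no filter on low signals (adjusted p of 0.0991 and 0.174), and with either PEPCK-TAg array left out neither set cleared the filter. With the station as a block the differences were 1.91 (adjusted p = 0.159) and 1.67 (adjusted p = 0.171), and with the scanner type as a block 1.75 (adjusted p = 0.0599) and 2.22 (adjusted p = 0.0386).

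The bases upstream of the Nqo1 start are shown because this gene is a classic ARE target whose transcript rose. They come from the RefSeq promoter table (build GRCm38.p6, chr8:107403206-107403455, minus strand, 250 bases, 5′ to 3′). In this and the following sequences capitals would mark a match to the ARE core (TGACNNNGC) or the MRE core (TGCACNC or TGCGCNC) on either strand.
Nqo1: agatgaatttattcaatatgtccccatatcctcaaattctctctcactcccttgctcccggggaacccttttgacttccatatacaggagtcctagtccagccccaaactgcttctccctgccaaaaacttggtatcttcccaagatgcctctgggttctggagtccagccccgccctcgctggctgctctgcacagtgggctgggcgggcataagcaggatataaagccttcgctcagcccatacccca
The run has no capitals: neither core was found in the window of 250 bases before and 50 after the start, which says only that these letters are not in this window. Over the 32851 windows of the table, 12.4% held the ARE core and 25.7% an MRE core. Of the 10 genes, 9 had a window (11 windows, 3 of them for Txnrd1), 5 had an ARE core match (Gclm, Txnrd1, Prdx1, Sod1 and Mt2) and 3 an MRE core match (Gclm, Mt1 and Mt2). A match is a description of letters and not a measured binding site.

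Mt1 and Mt2 encode the metallothioneins found in nearly all cells and abundant in liver. They are neighbours: the protein-coding order on the chromosome is Mt4, Mt3, Mt2, Mt1. Mt2 (101561_at) read 347 and 605 in wild-type liver against 1215 and 1906 in PEPCK-TAg liver. Both PEPCK-TAg arrays were above both wild-type arrays, and the gap between the groups was larger than the gap within either. The mean log2 signal was 8.84 ± 0.57 (SD, n = 2) in wild-type and 10.57 ± 0.46 in PEPCK-TAg, a difference of 1.73 ± 0.36 (SE) with a 95% interval of 0.87 to 2.59 and a limma adjusted p of 0.0269. The same-day value was 1.80. The call depended on both PEPCK-TAg arrays: without array 1 the difference was 2.06 (adjusted p = 0.0863) and without array 2 it was 1.40 (adjusted p = 0.193). It was also lost with no filter on low signals (adjusted p = 0.203) and with the station as a block (1.40, adjusted p = 0.282). The scanner type as a block gave 2.13 (adjusted p = 0.0032).

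Mt1 (93573_at) read 22.2 and 183 in wild-type liver against 195 and 512 in PEPCK-TAg liver. Wild-type array 1 was very low and under the filter level, whereas wild-type array 2 came within a small step of the lower PEPCK-TAg array, so the groups were separate only narrowly. The wild-type arrays differed from each other by 3.04 on the log2 scale, more than the group means did (2.31 ± 0.96 SE, limma adjusted p = 0.163, 95% interval 0.01 to 4.60). The same-day value was 3.13. Leaving out wild-type array 2 gave 3.83 (adjusted p = 1.61e-05) and leaving out wild-type array 1 gave 0.79, so the size of the Mt1 difference rested on which wild-type array was used. After quantile normalization, which gives all arrays the same distribution, the groups overlapped (2.12, adjusted p = 0.214). Mt1 and Mt2 put the 4 arrays in the same order, from wild-type 1 through wild-type 2 and PEPCK-TAg 1 to PEPCK-TAg 2. Their transcripts are alike in sequence, and whether their probes also bind each other's transcript was not tested. The neighbouring Mt3, named after its values were seen, gave 446 and 640 in wild-type against 438 and 288 in PEPCK-TAg (-0.59, adjusted p = 0.262).

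The Mt2 promoter is shown because it holds matches to both cores, and the last bases of Mt1 for comparison. The Mt2 run is chr8:94172368-94172617 (plus strand, 250 bases) and the Mt1 run chr8:94179059-94179088 (plus strand, 30 bases before the start that the table uses, kept short because the annotated gene begins upstream of that start), both GRCm38.p6 from RefSeq, 5′ to 3′, with ARE and MRE core matches in capitals.
Mt2: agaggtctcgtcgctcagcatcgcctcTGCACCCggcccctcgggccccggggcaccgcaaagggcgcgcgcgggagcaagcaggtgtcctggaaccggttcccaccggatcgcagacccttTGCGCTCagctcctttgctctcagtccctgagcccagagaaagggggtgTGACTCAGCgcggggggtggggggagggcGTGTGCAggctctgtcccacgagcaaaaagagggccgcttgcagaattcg
Mt1: cccgctgTGCACACtggcgctccagggagc
In Mt2 the MRE core occurred with its first base 223, 128 and 50 bases before the start and again at base 5 after it, and the ARE core (TGACTCAGC) from 79 to 71 bases before the start. That ARE match contains the AP-1 letters TGACTCA, which 5.2% of all windows hold, so these overlap. In Mt1 the MRE core began 23 bases before the start and at bases 3 and 21 after it, and no ARE core was found in its window.

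Gclc and Gclm encode the catalytic and the modifier subunit of glutamate-cysteine ligase, the first enzyme of glutathione synthesis. Gclc (99649_at) read 1702 and 1784 in wild-type liver against 1039 and 522 in PEPCK-TAg liver. Both PEPCK-TAg arrays were below both wild-type arrays, which were nearly equal, while the PEPCK-TAg arrays were 0.99 apart on the log2 scale. The difference between the groups was -1.25 ± 0.35 (SE) on the log2 scale, with a 95% interval of -2.08 to -0.41 and a limma adjusted p of 0.065, and the same-day value was -0.72. The Gclc difference was -1.28 without wild-type array 1 and -1.21 without wild-type array 2. It was -1.74 without PEPCK-TAg array 1 and -0.75 without PEPCK-TAg array 2, so its size depended on the PEPCK-TAg arrays.

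Gclm (160335_at) gave signals of 1733 and 819 in wild-type against 1505 and 1924 in PEPCK-TAg. The groups overlapped, since wild-type array 1 lay between the PEPCK-TAg arrays and only wild-type array 2 was low. The difference was 0.51 ± 0.38 (SE), with a 95% interval of -0.39 to 1.42 and a limma adjusted p of 0.405. Its direction turned on the wild-type arrays: it was 1.06 (adjusted p = 0.0227) without array 1, -0.03 (adjusted p = 0.967) without array 2, and -0.21 as the same-day value. The subunits of this enzyme therefore had point estimates of opposite sign, and neither passed; the difference between them was not tested.

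**Figure D2:**
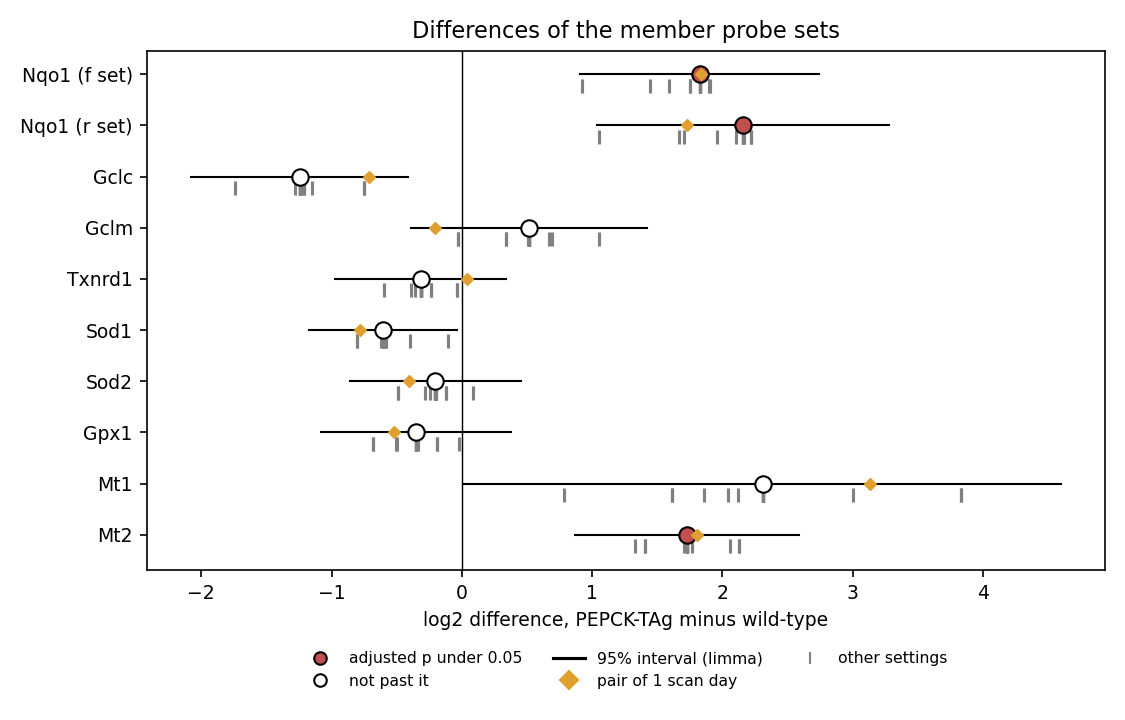
Log2 difference of PEPCK-TAg minus wild-type for each probe set (circle, filled where the adjusted p is under 0.05) with limma's 95% interval, the pair of arrays scanned on 1 day (diamond) and the other settings (ticks). The Mt2 interval (0.87 to 2.59) and both Nqo1 intervals lie above 0, the Gclc interval (-2.08 to -0.41) lies below it without an adjusted p under 0.05, and the ticks of Gclm fall on both sides of 0.

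Txnrd1 encodes the cytosolic thioredoxin reductase, which keeps thioredoxin in its reduced form. Txnrd1 (99985_at) gave signals of 608 and 897 in wild-type against 627 and 563 in PEPCK-TAg. The groups overlapped, with wild-type array 2 the only high one. The difference was -0.32 ± 0.27 (SE; 95% interval -0.97 to 0.34, limma adjusted p = 0.477), and the same-day value was 0.04.

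The superoxide dismutases act in different places, Sod1 in the cytosol with copper and zinc and Sod2 in mitochondria with manganese. Sod1 (100538_at) read 8419 and 8666 in wild-type liver against 4897 and 6473 in PEPCK-TAg liver. The wild-type arrays were nearly equal and both PEPCK-TAg arrays were below them, a difference of -0.60 ± 0.24 (SE; 95% interval -1.17 to -0.04) that is 1.52-fold lower. It did not pass after adjustment (unadjusted p = 0.0394, limma adjusted p = 0.145), and the same-day value was -0.78. Under quantile normalization the Sod1 difference shrank to -0.11 (limma adjusted p = 0.647) and the groups overlapped. The median of all probe sets moved the other way, by -0.14, and the cause of the Sod1 change was not tested.

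Sod2 (96042_at) gave signals of 895 and 604 in wild-type against 676 and 605 in PEPCK-TAg. Both PEPCK-TAg arrays lay inside the wild-type range, and the difference was -0.20 ± 0.27 (SE; 95% interval -0.86 to 0.45, limma adjusted p = 0.656), turning to 0.08 without wild-type array 1. Gpx1, the main cytosolic glutathione peroxidase (94132_at), gave signals of 392 and 486 in wild-type against 273 and 431 in PEPCK-TAg. The lowest array was a PEPCK-TAg array and the groups overlapped. The Gpx1 difference was -0.35 ± 0.31 (SE; 95% interval -1.08 to 0.38, limma adjusted p = 0.484), with a same-day value of -0.52. The 95% intervals of Gclm, Txnrd1, Sod2 and Gpx1 span 0 and leave room for changes either way, so these arrays do not show that the genes were the same in both livers.

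**Figure D3:**
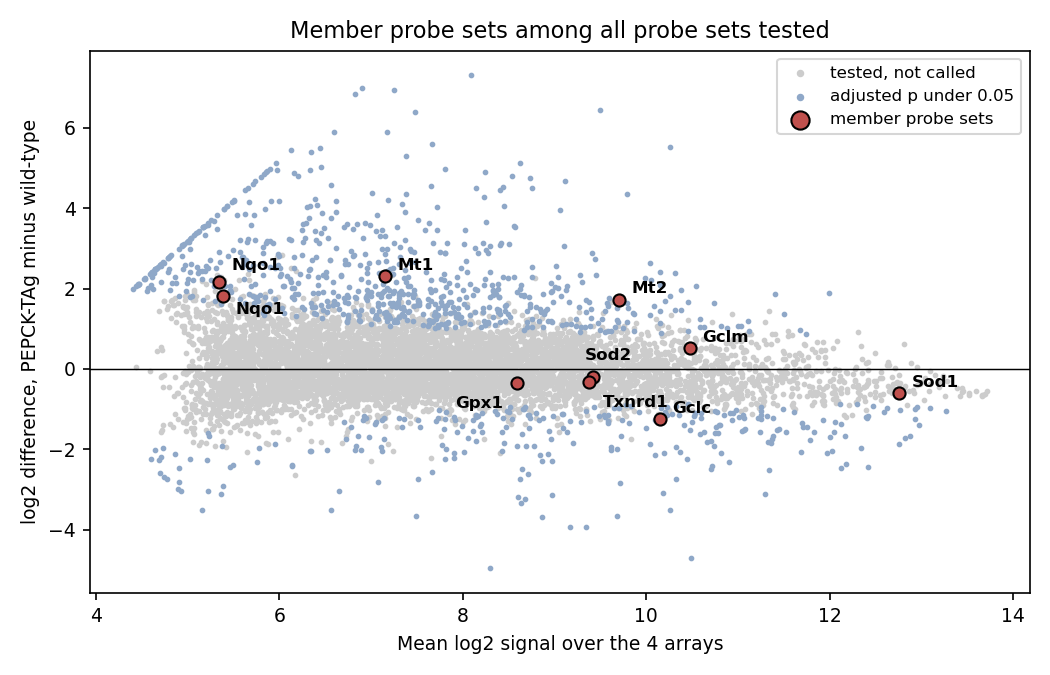
Log2 difference of PEPCK-TAg minus wild-type against the mean log2 signal over the 4 arrays for all 7877 probe sets tested, with those called in blue-grey and the 10 probe sets of the antioxidant and metallothionein genes as large points. Mt2 and both Nqo1 sets lie among the called probe sets above 0; the straight edge at the upper left is made by probe sets whose wild-type signals both sit at the floor.

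The genes around these in the same systems were listed too: 103 genes of glutathione, thioredoxin, superoxide and peroxide, metal handling, and NRF2 control and targets, of which 82 were on the array and 75 tested by their brightest probe set. Of the 75, 2 rose, 5 fell and 68 did not pass. Their median difference was -0.15, beside 0.05 over all probe sets tested. After quantile normalization these medians were -0.07 and -0.09, so the gap between them depended on the scaling. In the glutathione system 1 of 11 genes rose and none fell. In the thioredoxin system 1 of 11 fell, among superoxide and peroxide genes 2 of 9 fell, and among metal handling genes 1 of 15 fell, with none rising in these lists. Among NRF2 control genes and targets 1 of 29 rose and 1 fell. Over all probe sets tested 9.10% were called higher and 3.40% lower, and nothing particular to these lists is read from their counts.

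The genes that rose were Cbr1 and Gpx7. Cbr1, a carbonyl reductase that detoxifies reactive carbonyls, gave signals of 272 and 334 in wild-type against 605 and 792 in PEPCK-TAg. All PEPCK-TAg values were above all wild-type values, by 1.20 ± 0.27 (SE; 2.30-fold, limma adjusted p = 0.0329), with a same-day value of 1.15. Gpx7, a peroxidase of the endoplasmic reticulum, gave 5.8 and 4.3 in wild-type against 65.2 and 69.0 in PEPCK-TAg. Its wild-type arrays were both under the floor of 10.6. Against that floor the difference was 2.66 ± 0.44 (SE; 6.33-fold, limma adjusted p = 0.0126). The floor makes the wild-type values equal, so that p-value carries none of their spread. Gpx7 cleared the filter only through the PEPCK-TAg arrays. Raising all signals under 41.3 to that value, the bound used for Nqo1, left a difference of at least 0.70 that was not called.

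The 5 genes that fell were Sod3, Pon1, Slc31a1, Ephx1 and Txnrd3. Sod3, the secreted superoxide dismutase, gave signals of 271 and 510 in wild-type against 128 and 136 in PEPCK-TAg. Pon1, a paraoxonase that liver secretes onto high-density lipoprotein, gave 5266 and 6912 in wild-type against 2202 and 2838 in PEPCK-TAg. Both were lower on each PEPCK-TAg array, Sod3 by 2.83-fold (-1.50 ± 0.35 SE, limma adjusted p = 0.0399, same-day -1.09) and Pon1 by 2.42-fold (-1.27 ± 0.26 SE, adjusted p = 0.0241, same-day -1.26). Pon1 is a product of hepatocytes, whose marker sum was lower in the same arrays as deposited; the part of that in the Pon1 value was not tested.

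Slc31a1 (CTR1), the copper importer, gave signals of 2656 and 2818 in wild-type against 1474 and 1037 in PEPCK-TAg, a fall of 2.22-fold (-1.15 ± 0.25 SE, limma adjusted p = 0.0329, same-day -0.85). Ephx1, the microsomal epoxide hydrolase, had 1581 and 1760 against 846 and 879 (-0.95 ± 0.22 SE, adjusted p = 0.0369, same-day -0.91). Txnrd3, a thioredoxin reductase best known from testis, had 387 and 485 against 198 and 207 (-1.10 ± 0.26 SE, adjusted p = 0.0385, same-day -0.97). In each of these the groups were well apart. A dimmer Slc31a1 probe set gave -0.93 and did not pass (adjusted p = 0.0552). The called Txnrd3 set is an r set. A dimmer Txnrd3 set went the other way, with 10.5 and 8.8 in wild-type against 24.3 and 23.6 in PEPCK-TAg, too dim to test. Quantile normalization changed which related genes were called: 3 rose (Gpx7, Cp and Gstm3) and 3 fell (Txnrd3, Sod3 and Pon1), and Cbr1, Slc31a1 and Ephx1 had adjusted p-values of 0.0627, 0.0587 and 0.0527. Without PEPCK-TAg array 1 limma called 0 of 74 related genes (14 at an unadjusted p under 0.05), without PEPCK-TAg array 2 it called 0 of 73 (13 at an unadjusted p under 0.05), and without wild-type array 1 it called 16 of 75.

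The regulators of these genes were read as well. Nfe2l2, which encodes NRF2, gave signals of 774 and 534 in wild-type against 1235 and 1191 in PEPCK-TAg. Both PEPCK-TAg arrays were above both wild-type arrays, by 0.92 ± 0.26 (SE). Nfe2l2 did not pass (limma adjusted p = 0.0706), and its same-day value was 0.67. Keap1, its inhibitor, gave 20.1 and 13 in wild-type against 15.5 and 34.4 in PEPCK-TAg, too dim to test. Mtf1, the metal-sensing factor of the metallothionein genes, had 99.4 and 45.3 against 87.2 and 93.3, with both PEPCK-TAg arrays inside the wild-type range (0.43 ± 0.44 SE, adjusted p = 0.556).

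**Figure D4:**
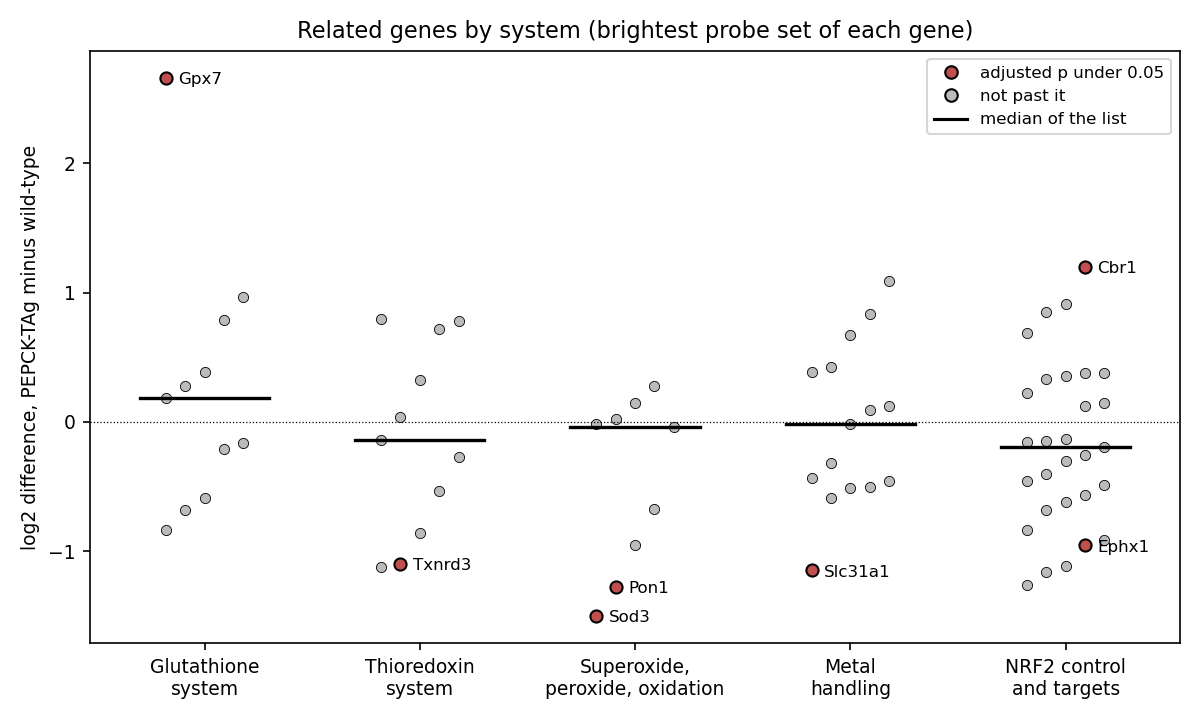
Log2 difference of PEPCK-TAg minus wild-type for the 75 related genes tested, by system, each by its brightest probe set, with the list's median as a bar and named points where the adjusted p is under 0.05. Points lie on both sides of 0 in every list, and the medians run from -0.19 (NRF2 control and targets) to 0.18 (glutathione system).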

How the data were processed

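Signals of 4 arrays were used as the authors deposited them in their value table: intensity values per probe set from MAS5, per the submitters' processing notes, on a linear scale; its version is not given in the sources read. Each array's signals were multiplied by a factor that set its 2% trimmed mean to the mean over the 4 arrays (the deposited values were already nearly equal), raised where lower to the 20th percentile of all signals (a floor of 10.6) and taken to log2. A probe set was tested when at least 2 of 4 arrays exceeded the 40th percentile (41.3). This left 7877 of 12422 and set 4545 aside; 66 controls were left out. Of the 12422, 10833 had 1 gene symbol, 396 several and 1193 none. Differences were tested with limma 3.58.1 (R 4.3.3; lmFit, eBayes with an intensity trend, two-sided, 6.60 total degrees of freedom, Benjamini-Hochberg adjustment over all probe sets tested), with SE and 95% intervals from the same fit. The number of arrays limits the precision. Every probe set of the 10 genes is named, then related genes whose brightest probe set passed, and the regulators Nfe2l2, Keap1 and Mtf1. The members and lists were chosen with earlier results of these data known. Alternatives covered normalization, floor, pseudocount, filter, each array left out, the replicate number, fluidics station or scanner type as a block, and settings of the moderated test. Chip lot as a random block could not be fitted. Levels were not compared between probe sets. The transgene's own transcript was not analysed here.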

Additional observations from a re-analysis of the deposited data

How the results depend on the processing

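Of the 10 probe sets, the differences of Gclc, Sod1, Gpx1, Mt1 and Mt2 kept their direction under every alternative run. Both Nqo1 sets kept theirs where they were tested, which was not so with the filter at the 60th percentile or with either PEPCK-TAg array left out. Gclm turned to -0.028 with scanner type as a block and to -0.21 in the pair scanned on 1 day, and ran from -0.028 to 1.055 with 1 array left out. Txnrd1 turned to 0.041 in the pair scanned on 1 day, and Sod2 to 0.082 without wild-type array 1 (-0.487 to 0.082 with 1 array left out). The number of member probe sets called (3) was 0 with no filter (3 at an unadjusted p under 0.05), 1 of 8 tested with a filter at the 60th percentile, 5 with the replicate number as a block, 0 with the station as a block (3 at an unadjusted p under 0.05), and 0 to 5 with 1 array left out. Member probe sets without overlap (6) ran from 5 of 8 tested to 10 of 10 tested with 1 array left out. With 1 array in a group, groups separate more readily. The share over all probe sets was not computed for these runs, so nothing is read from the range. Over all probe sets, 985 calls became 165 with no filter, 1621 at an adjusted p of 0.1, 1873 with the replicate block, 0 with the station as a block (1432 at an unadjusted p under 0.05), and 145 to 1696 with 1 array left out. Related genes called (7) became 1 with no filter, 1 with no intensity trend, 19 at an adjusted p of 0.1, 24 with the replicate block, 0 with the station as a block (10 at an unadjusted p under 0.05), 4 with scanner type as a block, and 0 to 16 with 1 array left out. With no filter 12422 probe sets share the adjustment, and limma's SE changed too. It went from 0.358 to 0.437 for Mt2 and from 0.381 to 0.24 for the first Nqo1 set. Member probe sets at an unadjusted p under 0.05 went from 6 to 3. The station block leaves PEPCK-TAg array 2, and the scanner block wild-type array 2, out of the comparison. The causes of the changes in calls were not tested. With the replicate block Gclc (adjusted p = 0.0133) and Mt1 (adjusted p = 0.00461) were called as well. The labels do not say that the array numbers pair arrays: those numbered 1 share a scan day and those numbered 2 do not, and the deviations of same-numbered arrays from their group means had r = 0.25 across 7877 probe sets. Signals near the filter level limit Nqo1, Keap1 and the wild-type level of Mt1.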
